A study of Mus musculus with 6 samples.

Results

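The clustered Hox genes were followed across RNA-seq of A20 cells, a mouse B cell lymphoma line from the BALB/c strain. A gene was a member when its identifier in the count files matched a mouse symbol made of Hox, a cluster letter from a to d and a number, which gave 39 members among the 27179 gene identifiers in the files. The 39 divide into 11 HoxA, 10 HoxB, 9 HoxC and 9 HoxD genes. The 6 libraries formed 3 groups of 2, namely wildtype A20 cells without any construct, A20 cells carrying TETact-v3 with a non-targeting control sgRNA, and A20 cells carrying TETact-v3 with an sgRNA to the Cd4 promoter. TETact-v3 is a catalytically inactive Cas9 (dCas9) with a SunTag peptide array that recruits the catalytic domain of the DNA demethylating enzyme TET1, while MS2 aptamers in the sgRNA recruit the activators p65 and hsf1. The constructs were delivered by lentivirus and the cells were sorted for the reporters, and TETact cells were collected a week after sgRNA transduction, so that both groups share transduction and sorting that wildtype cells did not undergo. No sgRNA of these groups was aimed at a Hox gene. Replicates were 2 independently repeated samples of 1 line, and in bulk RNA fewer expressing cells and less RNA per cell cannot be told apart.

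Hox genes encode homeodomain transcription factors that are ordered along their clusters as they are used along the body axis, with low paralogue numbers anterior and high numbers posterior. Their proteins bind DNA together with Pbx, Meis and Pknox partners, trithorax proteins keep the clusters active and polycomb proteins keep them silent, and CpG-rich promoters are usual among them. In blood, HoxA and HoxB genes are best known from stem and progenitor cells, where Hoxa7, Hoxa9 and Hoxa10 are also targets of leukaemic KMT2A fusions.

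The promoters of the most highly expressed HoxA gene, the most highly expressed HoxC gene and a HoxD gene without a single read are given below as the CpG context on which a TET1 domain acts. They run from 250 bases before to 50 bases after the transcription start, 5′ to 3′ on the gene's strand, in RefSeq coordinates of GRCm38.p6, with every CpG in capitals. The Hoxa7 promoter lies at chr6:52218524-52218823 on the minus strand, the Hoxc4 promoter at chr15:103034145-103034444 on the plus strand and the Hoxd13 promoter at chr2:74667975-74668274 on the plus strand. The Hoxc4 window is that of an internal start, since the annotated span of Hoxc4 begins at chr15:103018097. Which start A20 cells use was not determined.
Hoxa7: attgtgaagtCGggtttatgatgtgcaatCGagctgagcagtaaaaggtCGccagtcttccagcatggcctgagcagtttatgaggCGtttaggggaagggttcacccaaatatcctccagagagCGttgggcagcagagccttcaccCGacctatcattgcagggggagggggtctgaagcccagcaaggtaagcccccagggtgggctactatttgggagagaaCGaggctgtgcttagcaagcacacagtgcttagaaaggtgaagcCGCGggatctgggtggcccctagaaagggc
Hoxc4: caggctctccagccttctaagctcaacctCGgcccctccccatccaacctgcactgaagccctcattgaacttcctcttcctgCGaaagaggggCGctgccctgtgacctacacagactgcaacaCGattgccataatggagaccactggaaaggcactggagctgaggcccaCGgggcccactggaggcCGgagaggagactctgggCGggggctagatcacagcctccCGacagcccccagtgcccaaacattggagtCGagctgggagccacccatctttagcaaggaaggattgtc
Hoxd13: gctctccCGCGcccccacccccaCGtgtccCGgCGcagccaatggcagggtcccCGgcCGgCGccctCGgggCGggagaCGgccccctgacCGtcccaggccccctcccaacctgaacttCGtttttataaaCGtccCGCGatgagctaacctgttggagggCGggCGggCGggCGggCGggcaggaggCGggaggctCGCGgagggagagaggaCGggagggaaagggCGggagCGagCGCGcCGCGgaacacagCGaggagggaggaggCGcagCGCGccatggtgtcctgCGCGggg
Hoxa7 and Hoxc4 have 9 CpG each in this window and the silent Hoxd13 has 37. RefSeq windows were at hand for 24 promoters of 22 members, and the motif CG, which reads the same on both strands, was in all of them and in 94.6% of the 32851 mouse promoters of the same length. The median number of CpG was 14.5 over the Hox promoters and 7 over all promoters. Among the Hox promoters the number varied from 4 to 45, with a median of 17 for 10 promoters of 9 genes that were expressed enough to be tested and 14 for 14 promoters of 13 genes that were not. The most CpG-rich window was that of Hoxa13, with 45, and the poorest, with 4 each, were those of Hoxa9, Hoxd4 and 1 of 2 starts of Hoxd11. Hox genes with and without reads thus both included CpG-rich windows. Methylation was not analysed here.

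Library totals ranged from 23194920 to 121623410 assigned read pairs, so a member was called detected above a floor of 3 counts. As CPM (counts divided by the TMM-scaled library size), that floor lay between 0.0270 in the deepest and 0.140 in the shallowest library. The 2 control sgRNA libraries differed far more from each other than the replicates of the other groups, by a chi-square of 243 for each degree of freedom, against 7.84 in wildtype and 6.82 in Cd4 sgRNA cells. This value was taken on raw counts and rises with depth, and the control sgRNA libraries were the deepest, at 121623410 and 92285875 read pairs. All 10 B cell markers examined were expressed. In all, 5 of them, among them the antigen receptor component Cd79a, passed the test as lower in both TETact groups than in wildtype. Of all genes tested, 13.5% passed as lower in control sgRNA cells, and 20.5% passed in either direction in Cd4 sgRNA cells. The summed marker level was 8938 and 9050 CPM in wildtype, 5715 and 8643 CPM in control sgRNA and 5546 and 4949 CPM in Cd4 sgRNA cells. Most of that sum was Cd74, at 5468 and 5526, 3505 and 6032, and 3281 and 2792 CPM in the same order. Of 8 progenitor markers, 6 had no read in any library, including Cd34, Kit and Meis1, while the receptor Flt3 was expressed at 28.2 to 78.9 CPM. The 8 fibroblast markers had at most 20 counts in a library and Col1a2 and Lum had none. The summed fibroblast level was 0.0430 to 0.187 CPM in wildtype, 0.441 to 0.544 CPM in control sgRNA and 0.214 to 0.429 CPM in Cd4 sgRNA cells, and its part in any Hox difference was not tested. Of 6 myeloid markers, Cd14 had no read, and the summed level was 0.514 to 0.882, 0.810 to 2.40 and 0.397 to 0.565 CPM in the same order. Of 5 epithelial markers, Krt19 had no read, Epcam passed the test as higher in control sgRNA cells, and the summed level was 16 to 17.4, 25.9 to 37.1 and 13.1 to 14.1 CPM.

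The HoxA cluster was the most widely expressed, and the HoxD cluster was all but silent. Expression was high enough for testing in 9 of 11 HoxA, 4 of 10 HoxB, 4 of 9 HoxC and 0 of 9 HoxD genes, 17 of the 39 in all. Of the other 22 genes, 14 had no read in any of the 6 libraries, namely Hoxb1, Hoxb2, Hoxb9, Hoxb13, Hoxc11, Hoxc12, Hoxc13, Hoxd1, Hoxd3, Hoxd8, Hoxd9, Hoxd10, Hoxd12 and Hoxd13. Hoxc5, Hoxc8 and Hoxd11 stayed at or under 3 counts. Hoxa2, Hoxa11, Hoxb7, Hoxb8 and Hoxd4 exceeded the floor in some library with at most 14 counts. All genes that were silent throughout lay in HoxB, HoxC or HoxD.

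HoxA lies on chromosome 6, and the other clusters lie at chr11:96194316-96368254 (HoxB), chr15:102921131-103036856 (HoxC) and chr2:74668225-74765142 (HoxD), in 174, 116 and 96.9 kb of mm10. Within HoxA, the tested genes included the run from Hoxa3 to the posterior Hoxa13, with a gap at Hoxa11. Within HoxB the tested genes were the central Hoxb3, Hoxb4, Hoxb5 and Hoxb6. Those of HoxC were Hoxc4, Hoxc6, Hoxc9 and Hoxc10, with the intervening Hoxc5 and Hoxc8 near 0.

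**Figure D1:**
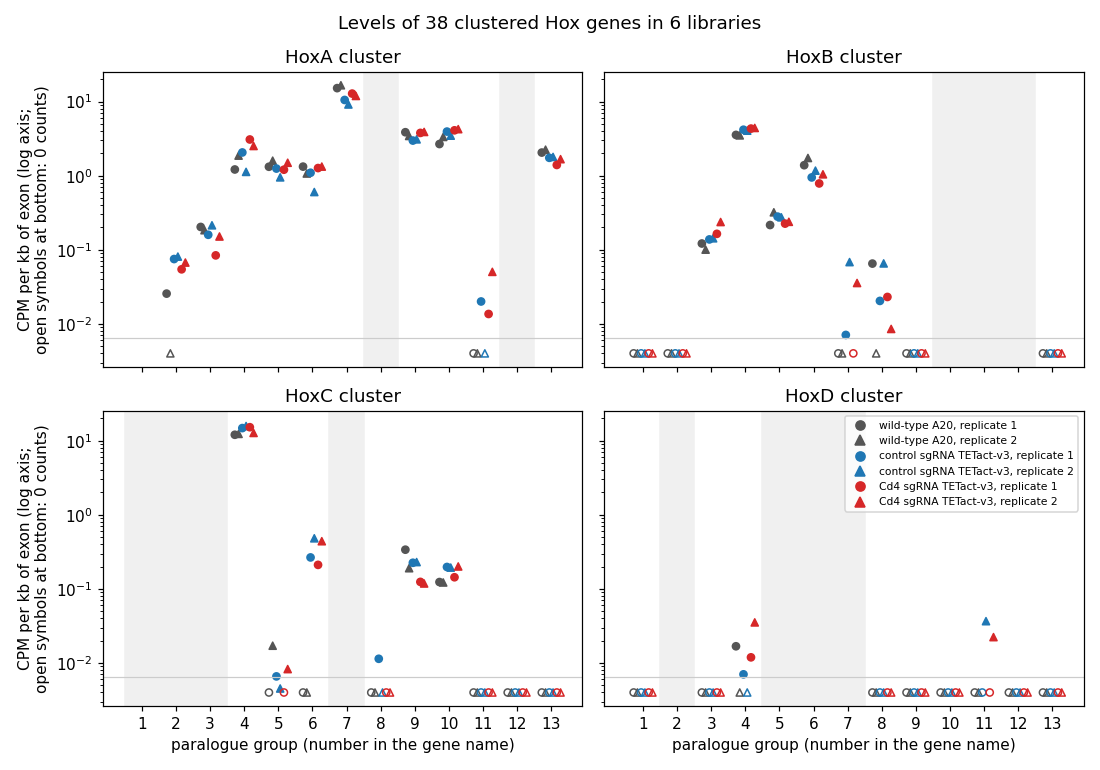
Level of 38 of the 39 clustered Hox genes, as CPM per kb of exon on a log axis, against the paralogue number, with 1 panel per cluster and 6 libraries side by side (circles replicate 1, triangles replicate 2). Open symbols at the bottom are libraries with 0 counts, and grey columns are paralogue numbers that the cluster lacks. HoxA is filled along most of its length, HoxD is nearly empty, and the wildtype symbols of Hoxc6 sit at 0 while all 4 TETact libraries lie above it.

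Per kb of exon, wildtype cells expressed Hoxa7 most, at 15.9 ± 1.00 CPM per kb (SD, n = 2), followed by Hoxc4 at 12.2 ± 0.231 CPM per kb. The next level was that of Hoxa9, the leukaemia-associated gene, at 3.64 ± 0.299 CPM per kb, which did not stand above the stem cell regulator Hoxb4 at 3.52 ± 0.0376 CPM per kb in both libraries. Hoxa10 followed at 3.0 ± 0.465 and Hoxa13, the distal limb and urogenital gene, at 2.14 ± 0.136 CPM per kb. Hoxb6, Hoxa4, Hoxa5 and Hoxa6 lay between 1.56 and 1.20 CPM per kb, and within this set of 4 none stood above the next in both libraries. Hoxb5, Hoxc9, Hoxa3, Hoxc10 and Hoxb3 lay between 0.268 and 0.111 CPM per kb.

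The order at the top was different in the TETact groups. In control sgRNA cells Hoxc4 stood at 15.3 ± 0.685 CPM per kb and above Hoxa7 at 9.82 ± 0.970 CPM per kb in both libraries. In Cd4 sgRNA cells Hoxc4 at 14 ± 1.75 CPM per kb was not above Hoxa7 at 12.4 ± 0.641 CPM per kb in both libraries. Hoxb4, Hoxa10 and Hoxa9 followed in that order in both TETact groups.

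Summed over its genes, HoxA gave 58.9 and 64.3 CPM in wildtype, 53.9 and 47.2 CPM in control sgRNA and 62.5 and 60.9 CPM in Cd4 sgRNA libraries. The control sgRNA libraries were therefore the lowest, and the other groups overlapped. Much of each HoxA sum was Hoxa7, at 29.6 and 32.4, 20.5 and 17.8, and 25.0 and 23.2 CPM in the same order. Because a single gene weighs so much, the lower sum does not show a drop across the cluster. HoxB gave 12 and 12.2 CPM in wildtype, 13.1 and 13.2 CPM in control sgRNA and 13.2 and 14.1 CPM in Cd4 sgRNA libraries. Most of each HoxB sum was Hoxb4, at 9.10 and 8.97, 10.7 and 10.4, and 11.1 and 11.3 CPM in the same order. HoxC gave 24.6 and 25.1 CPM in wildtype, 30.5 and 32.8 CPM in control sgRNA and 30.9 and 26.5 CPM in Cd4 sgRNA libraries. Most of each HoxC sum was Hoxc4, at 23.8 and 24.5, 29.3 and 31.2, and 30.1 and 25.2 CPM in the same order. All TETact libraries lay above wildtype for the HoxB and the HoxC sum. As a single gene makes up most of each, this does not show a rise across either cluster. With 2 libraries a group an exact two-sided permutation test cannot go below p = 0.333, and no other test was run on these sums.

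The number of Hox genes above the floor was 17 and 16 in wildtype, 20 and 20 in control sgRNA and 17 and 20 in Cd4 sgRNA libraries. Depth differed between libraries, and at the total of the smallest one the expected numbers were 16.4 and 16, 17.2 and 17.8, and 16.6 and 17.1. In all, 16 members were above the floor in both wildtype libraries and the same number in all 6 libraries. At a common depth the groups thus differed by fewer than 2 genes.

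**Figure D2:**
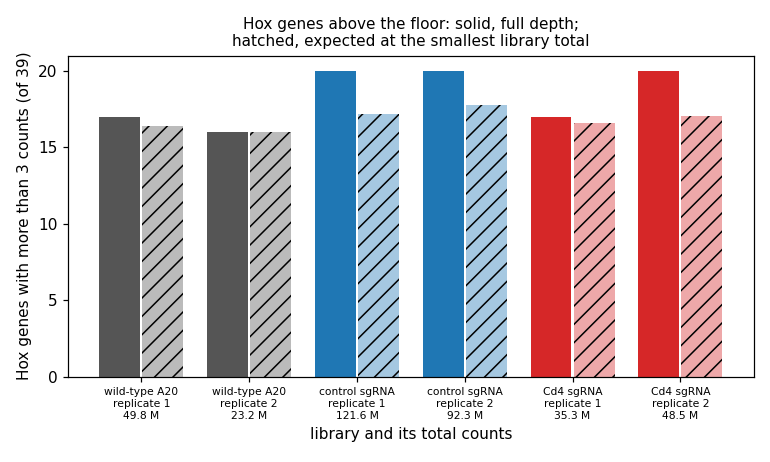
Number of the 39 Hox genes with more than 3 counts in each library (solid bars) and the number expected if each library had the smallest total (hatched bars). The solid bars range from 16 to 20, and the hatched bars from 16 to 17.8.

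Control sgRNA cells were compared with wildtype cells to see what carrying TETact-v3 without a genomic target goes with. Mitochondrial genes, which were left out of the tests, took 2.65% and 2.69% of counts in wildtype, 6.63% and 11.5% in control sgRNA and 5.96% and 6.90% in Cd4 sgRNA libraries, and the part of this in any Hox difference was not tested. Hoxc6 was higher and Hoxa7 lower in control sgRNA cells, and no other Hox gene passed an adjusted p of 0.05. That is 2 of 17 tested members, or 11.8%, against 28.0% of all 12430 genes tested. Split by direction, 1 Hox gene rose where 14.5% of all genes did and 1 fell where 13.5% did. The median log2 fold change of the 17 was 0.15, with 9 positive and 8 negative, and that of all genes was -0.00095. At an unadjusted p under 0.05 there were 3, with Hoxc4, against 42.6% of all genes. The CPM ranges of the groups did not overlap for 12 of the 17, against 67.1% of all genes.

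Hoxc6, a gene of the thoracic body axis at chr15:102998226-103011882, had 0 reads in both wildtype libraries. It had 47 and 62 reads in control sgRNA libraries, or 0.423 and 0.766 CPM, and 11 and 31 reads in Cd4 sgRNA libraries, or 0.336 and 0.700 CPM. The lowest TETact value was above the floor of either wildtype library, 0.0646 and 0.140 CPM. Set against 3 counts over the wildtype group, scaled Hoxc6 counts were 12.8-fold higher in control sgRNA cells (adjusted p = 0.0324, edgeR's quasi-likelihood test). They were 12.3-fold higher in Cd4 sgRNA cells, where the adjusted p of edgeR's quasi-likelihood test was 0.0509. These ratios leave out counting error and the spread between replicates, so they are not lower bounds. Hoxc6 passed the filter on low counts only through its TETact libraries, so a difference from wildtype was built into its being tested and its call adds no support beyond the counts themselves. No other annotated gene overlaps the span of Hoxc6. Its neighbours Hoxc5 and Hoxc8 had at most 2 and 3 counts in any library. In its own cluster Hoxc6 stood second by mean level in both TETact groups, at 0.374 ± 0.153 CPM per kb in control sgRNA and 0.325 ± 0.162 CPM per kb in Cd4 sgRNA cells, far below Hoxc4.

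Without control replicate 2 the log2 fold change of Hoxc6 in control sgRNA cells was 7.45, and without the other control library it was 8.12. As wildtype cells had no Hoxc6 reads, these values show the direction only. Either fit leaves control sgRNA cells without replicates, so it cannot show whether the call on Hoxc6 holds. The call on Hoxc6 was lost without either wildtype library and without either Cd4 sgRNA library. The Cd4 sgRNA libraries are not part of the comparison, but they enter the filter, the scaling, the shared estimate of spread and the adjustment. The call on Hoxc6 was also lost when only the 2 groups were fitted, at an adjusted p of 0.0603 by edgeR's quasi-likelihood test.

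Hoxa7, the most highly expressed HoxA gene, at chr6:52215623-52218573, gave 29.6 and 32.4 CPM in wildtype, 20.5 and 17.8 CPM in control sgRNA and 25.0 and 23.2 CPM in Cd4 sgRNA libraries. The 3 groups did not overlap, with Cd4 sgRNA cells in between. In control sgRNA cells Hoxa7 fell by 0.69 on the log2 scale (SE 0.12) to 0.621 of the wildtype level (adjusted p = 0.00989, edgeR's quasi-likelihood test). In Cd4 sgRNA cells its log2 fold change against wildtype was -0.36 (SE 0.12) and did not pass (adjusted p = 0.0789, edgeR's quasi-likelihood test). The call in control sgRNA cells was lost without wildtype replicate 1 or 2, at log2 fold changes of -0.73 and -0.60. Without control replicate 2 the log2 fold change of Hoxa7 was -0.58. That fit leaves control sgRNA cells without replicates, so it cannot show whether the call on Hoxa7 holds.

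Mira is a long non-coding RNA gene at chr6:52214491-52215288, between Hoxa6 and Hoxa7, known from embryonic stem cells as an activator of these neighbours. It gave 21.3 and 22.8 CPM in wildtype, 15.8 and 12.8 CPM in control sgRNA and 19.1 and 17.8 CPM in Cd4 sgRNA libraries. The order of the groups was that of Hoxa7, again without overlap. Mira fell by 0.61 on the log2 scale (SE 0.14) in control sgRNA cells (adjusted p = 0.0224, edgeR's quasi-likelihood test). That call was lost without any 1 of the wildtype or Cd4 sgRNA libraries and when only the 2 groups were fitted (adjusted p = 0.0678, edgeR's quasi-likelihood test). No annotated gene overlaps Hoxa7, and no Hox gene overlaps Mira. Whether another annotated gene overlaps Mira was not checked.

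The other HoxA genes did not all move with Hoxa7. Of the 9 tested HoxA genes, Hoxa7 included, 6 had a negative and 3 a positive estimate, with a median log2 fold change of -0.27. Hoxa10, a gene of myeloid progenitors, gave 8.39 and 10.5 CPM in wildtype and 12.4 and 10.9 CPM in control sgRNA libraries, without overlap and with a log2 fold change of 0.33. Hoxa9 gave 8.76 and 7.80 CPM in wildtype and 6.76 and 7.02 CPM in control sgRNA libraries, with a log2 fold change of -0.28. Adjacent genes thus had estimates of opposite sign, neither of which passed the test.

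Hoxa13 gave 2.69 and 2.94 CPM in wildtype and 2.29 and 2.35 CPM in control sgRNA libraries, and Hoxa5 gave 2.47 and 2.99 against 2.34 and 1.78 CPM. Both were lower without overlap and without a call. Hoxa4 gave 1.85 and 2.85 CPM in wildtype and 3.14 and 1.72 CPM in control sgRNA libraries, Hoxa6 gave 0.925 and 0.747 against 0.765 and 0.420 CPM, and Hoxa3 gave 0.517 and 0.467 against 0.405 and 0.544 CPM, all with overlapping ranges. The annotated span of Hoxa3 runs over Hoxa4, Hoxa5 and Hoxa6 and over the non-coding Hoxaas3, and whether the counting used strand was not given, so these values may share reads.

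Of the HoxB genes, Hoxb4 gave 9.10 and 8.97 CPM in wildtype and 10.7 and 10.4 CPM in control sgRNA libraries, a log2 fold change of 0.22 (SE 0.12) without a call. Hoxb6, known from early myeloid cells, went the other way, with 1.83 and 2.29 against 1.25 and 1.55 CPM and a log2 fold change of -0.53 (SE 0.25). Neither pair of ranges overlapped. Hoxb3, whose span overlaps Hoxb4, gave 0.452 and 0.374 against 0.513 and 0.532 CPM, and Hoxb5 gave 0.409 and 0.607 against 0.531 and 0.519 CPM.

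Hoxc4, the main HoxC gene of these B cells, gave 23.8 and 24.5 CPM in wildtype, 29.3 and 31.2 CPM in control sgRNA and 30.1 and 25.2 CPM in Cd4 sgRNA libraries. Every TETact library was above every wildtype library. The log2 fold change of Hoxc4 in control sgRNA cells was 0.33 (SE 0.12) and did not pass (adjusted p = 0.0848, edgeR's quasi-likelihood test). Hoxc9 gave 0.581 and 0.327 CPM in wildtype and 0.387 and 0.396 CPM in control sgRNA libraries, and Hoxc10 gave 0.237 and 0.234 against 0.378 and 0.371 CPM. Hoxc10 was higher without overlap, on counts of 5 to 42, and did not pass either.

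**Figure D3:**
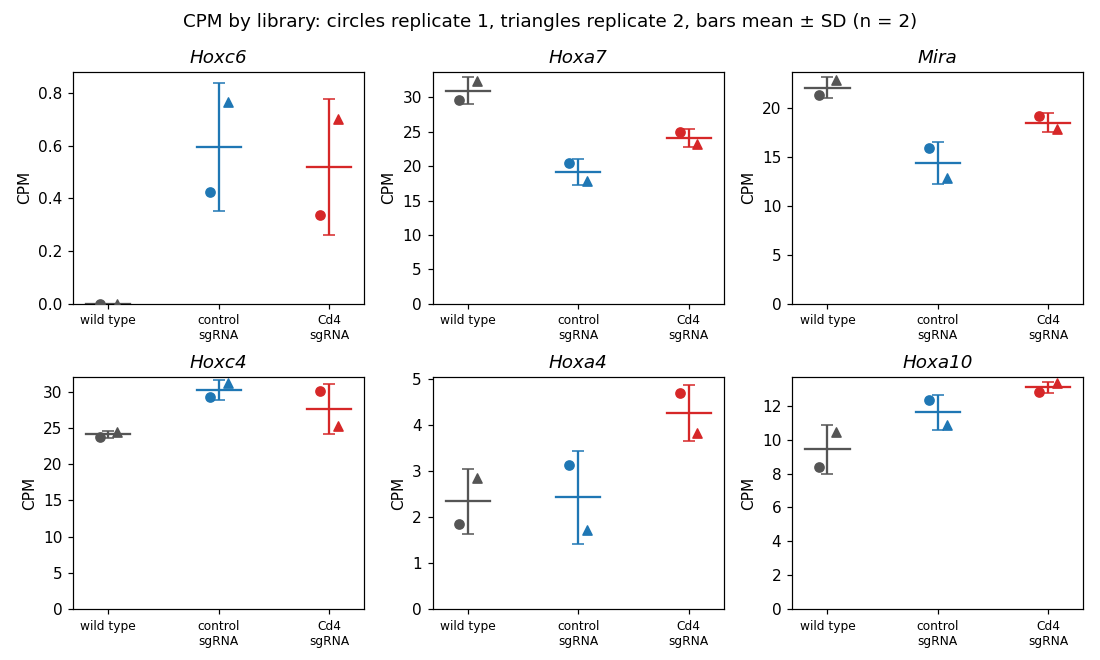
CPM of Hoxc6, Hoxa7, Mira, Hoxc4, Hoxa4 and Hoxa10 in each library, on linear axes that start at 0, with circles for replicate 1, triangles for replicate 2, and lines and bars for the mean ± SD (n = 2). Hoxc6 is at 0 in wildtype and between 0.336 and 0.766 CPM in TETact libraries, and Hoxa7 and Mira share the order wildtype, Cd4 sgRNA, control sgRNA from high to low.

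A pair of untested genes had 10 or more counts in a library. Hoxa2, a hindbrain gene, had 2 and 0 counts in wildtype, 14 and 11 in control sgRNA and 3 and 5 in Cd4 sgRNA libraries. Per effective library size the ratio of control sgRNA to wildtype was 4.42, with an exact 95% interval from 1.10 to 38.5 that covers counting error only. Hoxb8, a myeloid differentiation gene, had 8 and 0, 6 and 14, and 2 and 1 counts in the same order, with no order among the groups. The remaining untested members with reads had at most 7 counts in a library.

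Cd4 sgRNA cells were compared with wildtype cells as a second group that carries TETact-v3, here with a genomic target, the Cd4 promoter. Cd4 lies on chromosome 6, as does HoxA, and the other clusters lie elsewhere. No Hox gene passed edgeR's quasi-likelihood test among the 17, against 20.5% of all 12430 genes, and 6 of the 17 had an unadjusted p under 0.05, against 37.5% of all genes. DESeq2 called 3, with Hoxa10 and Hoxc6 among them, where it called 28.6% of all genes, and voomLmFit called 1, Hoxc6, where it called 17.2%. The median log2 fold change was 0.07, with 10 positive and 7 negative, and CPM ranges did not overlap for 13 of the 17, against 79.8% of all genes. This comparison and the former share the wildtype libraries.

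Hoxa10 gave 12.8 and 13.3 CPM, a log2 fold change of 0.50 (SE 0.16; adjusted p = 0.0709, edgeR's quasi-likelihood test). Hoxa4 gave 4.70 and 3.84 CPM, a log2 fold change of 0.93 (SE 0.39), above both wildtype libraries and both control sgRNA libraries. Among genes with lower values, Hoxc9 gave 0.214 and 0.203 CPM with a log2 fold change of -1.25 (SE 0.48), and Hoxb6 gave 1.04 and 1.38 CPM with a log2 fold change of -0.70 (SE 0.29). Hoxc9 rested on 7 and 9 reads in Cd4 sgRNA and 27 and 7 in wildtype libraries, and without wildtype replicate 1 its log2 fold change was -0.62. Hoxa13 gave 1.83 and 2.19 CPM and Hoxa3 0.214 and 0.384 CPM, both below the wildtype range.

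Hoxb4 gave 11.1 and 11.3 CPM and Hoxb3 0.610 and 0.881 CPM in Cd4 sgRNA libraries, both above the wildtype range. Hoxc10 gave 0.275 and 0.384 CPM, also above it. Hoxa9 gave 8.58 and 8.83 CPM, Hoxa5 2.26 and 2.8 CPM, Hoxa6 0.885 and 0.926 CPM and Hoxb5 0.427 and 0.452 CPM. Of these last genes, Hoxa9, Hoxa5, Hoxa6 and Hoxb5 overlapped wildtype, with log2 fold changes between -0.10 and 0.07.

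The number of calls changed with the libraries in the fit, and the cause was not tested. The control sgRNA libraries are not part of the comparison of Cd4 sgRNA with wildtype cells, but they enter its fit. Without control replicate 1 or without control replicate 2, 9 Hox genes passed as different between Cd4 sgRNA and wildtype cells, against 59.3% and 59.7% of all genes. Without control replicate 1 the 9 included Hoxa4, Hoxa7, Hoxa10, Hoxb4, Hoxb6, Hoxc4, Hoxc6 and Hoxc9, and the same 9 passed without control replicate 2. For control sgRNA against wildtype, 6 passed without control replicate 1 (64.2% of all genes) and 8 without control replicate 2 (59.9% of all genes), while none passed without wildtype replicate 1 (0.910% of all genes) or 2 (3.10% of all genes).

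**Figure D4:**
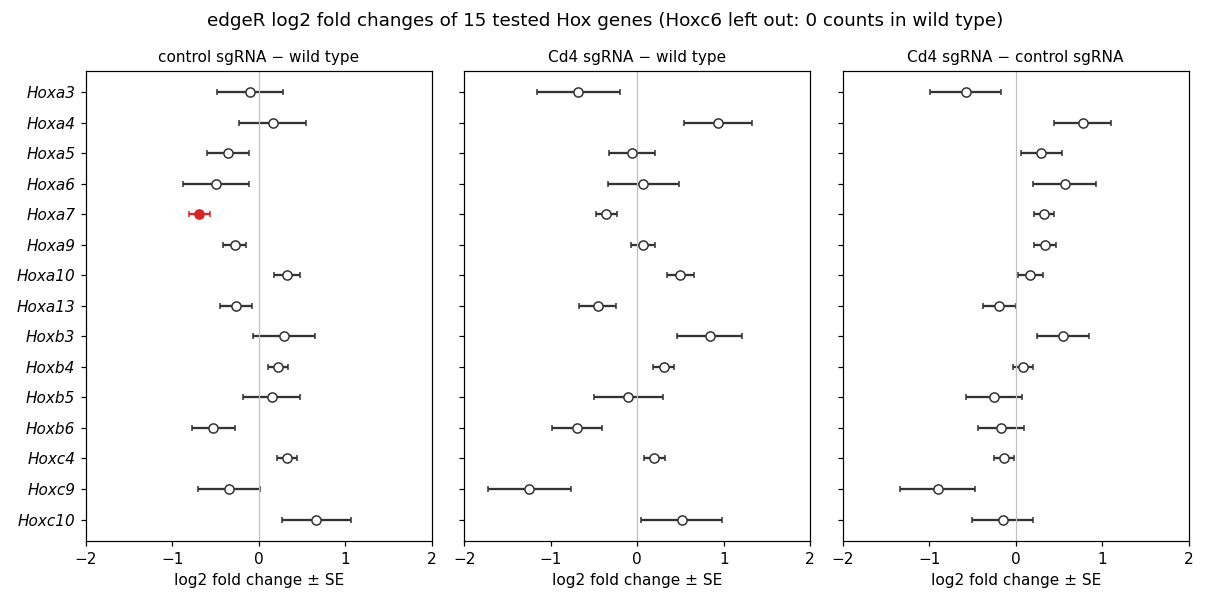
Log2 fold change with its SE for 15 of the 17 tested Hox genes in 3 comparisons, from 1 edgeR fit of 6 libraries. Filled red points have an adjusted p under 0.05, and open points do not. Hoxc6 is left out because it has no reads in wildtype cells. Hoxa7 in control sgRNA cells, at -0.69, is the 1 filled point.

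Cd4 sgRNA cells were compared with control sgRNA cells to ask whether aiming the sgRNA at the Cd4 promoter goes with Hox expression. None of the 17 Hox genes passed, where 0.0724% of all genes did by edgeR's quasi-likelihood test, and 2 had an unadjusted p under 0.05, against 24.9% of all genes. voomLmFit called none, where it called 0.0563% of all genes. DESeq2 called none of the 11 Hox genes to which it gave an adjusted p, where it called 11.5% of all genes, and it gave no adjusted p for the other 6. The log2 fold change of Hoxc6 between the TETact groups was -0.08 (SE 0.52), with overlapping ranges. CPM ranges did not overlap for 11 of the 17, against 59.6% of all genes.

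By cluster, 7 of 9 HoxA genes had a positive estimate, with a median log2 fold change of 0.30, and all 4 HoxC genes had a negative one, with a median of -0.14, beside -0.01 over all genes. Hoxa7 was at 0.33 (SE 0.12) and Hoxa9 at 0.34 (SE 0.13), the 2 genes with an unadjusted p under 0.05. Hoxa4 was at 0.77 (SE 0.33) and Hoxa6 at 0.57 (SE 0.37), and both were above the control sgRNA range. Hoxa3 and Hoxa13 were the exceptions, at -0.58 and -0.19. Without control replicate 1, the 6 genes Hoxa4, Hoxa5, Hoxa6, Hoxa7, Hoxa9 and Hoxa10 passed (61.2% of all genes), and without control replicate 2, 1 gene, Hoxa9, did (24.9% of all genes).

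HOX proteins need partners of the TALE homeodomain family, and 7 of 9 such genes were tested. Pbx2 gave 45.7 and 48.2 CPM in wildtype, 54.7 and 83.4 CPM in control sgRNA and 39.1 and 40.2 CPM in Cd4 sgRNA libraries. Control replicate 2 was the highest library for Pbx2 and for Pbx4, at 0.976 CPM. Pbx3 ranged from 12.1 to 17.1 CPM, Meis2 from 20.5 to 25.3 CPM and Meis3 from 8.73 to 10.9 CPM over the 6 libraries. Meis1, the partner of HOXA9 in leukaemia, had no reads, and Pknox2 had at most 1.

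Pknox1, another TALE partner, gave 23.9 and 21.0 CPM in wildtype, 31.6 and 29.4 CPM in control sgRNA and 27.9 and 29.1 CPM in Cd4 sgRNA libraries. It rose by 0.43 on the log2 scale (SE 0.11) in control sgRNA cells (adjusted p = 0.0310, edgeR's quasi-likelihood test). This was the single call among the 7 tested cofactors, where 28.0% of all genes passed. Pknox1 did not pass in Cd4 sgRNA cells (0.34, SE 0.11), nor did any other cofactor, where 20.5% of all genes passed. In Cd4 sgRNA against control sgRNA cells all 7 estimates were negative, with a median of -0.25, and none passed.

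On the trithorax side, which holds Hox clusters active, 5 of 19 tested genes rose and 0 fell in control sgRNA cells. In Cd4 sgRNA cells 5 rose and 1 fell. The histone H3K27 demethylase gene Kdm6b gave 49.1 and 54.4 CPM in wildtype, 109 and 156 CPM in control sgRNA and 67.1 and 59.6 CPM in Cd4 sgRNA libraries. It rose by 1.36 on the log2 scale (SE 0.18) in control sgRNA cells (adjusted p = 0.00536, edgeR's quasi-likelihood test). Kmt2b, an H3K4 methyltransferase gene, rose by 0.54 in control sgRNA and 0.58 in Cd4 sgRNA cells, and Kat7, a histone acetyltransferase gene, by 0.48 and 0.32. Dot1l, the H3K79 methyltransferase gene, and its partner Mllt10 rose by 0.38 and 0.40 in Cd4 sgRNA cells. Both also rose in control sgRNA cells. Over the alternatives other than leaving out 1 library, that rise was 0.39 to 0.44 for Dot1l and 0.47 to 0.52 for Mllt10. Aff1, an elongation factor gene, fell by 0.78 in Cd4 sgRNA cells.

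Of 32 polycomb genes, all tested, 8 rose and 1 fell in control sgRNA cells, and 8 rose in Cd4 sgRNA cells. Pcgf2, of the repressive complex PRC1, gave 12 and 11.9 CPM in wildtype, 21.1 and 24.2 CPM in control sgRNA and 18.3 and 17.7 CPM in Cd4 sgRNA libraries. It rose by 0.92 and 0.59 on the log2 scale in the TETact groups. Rnf2, the PRC1 ubiquitin ligase gene, rose by 0.43 and 0.47. Pcgf5 rose by 0.98 and Bcor, of a variant PRC1, fell by 0.39 in control sgRNA cells. Eed, of the methyltransferase complex PRC2, rose by 0.61 in Cd4 sgRNA cells. Eed also rose in control sgRNA cells, by 0.38 to 0.45 over the alternatives other than leaving out 1 library. The shares called, 9 of 32 and 8 of 32 polycomb and 5 of 19 and 6 of 19 trithorax genes, stand beside 28.0% and 20.5% of all genes. The median log2 fold changes were 0.22 and 0.10 for polycomb and 0.21 and 0.13 for trithorax genes. None of these genes passed edgeR's quasi-likelihood test between the TETact groups, where DESeq2 called 7 regulator and cofactor genes, all lower in Cd4 sgRNA cells, and 11.5% of all genes. Without either wildtype library no regulator or cofactor passed in a comparison with wildtype, where between 0.635% and 3.10% of all genes did. Without Cd4 sgRNA replicate 1 or 2 none passed in Cd4 sgRNA against wildtype, where 1.53% and 1.07% of all genes did. Without control replicate 2, 40 passed in control sgRNA and 36 in Cd4 sgRNA cells against wildtype (59.9% and 59.7% of all genes), where the fit of all 6 libraries had 16 and 15.

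Retinoic acid induces Hox genes through its receptors, and Cdx and ParaHox factors are close relatives or inducers. Of 13 such genes 3 were tested, the receptors Rara, Rarb and Rarg. Rarg had 2 and 3 reads in wildtype, 115 and 119 in control sgRNA and 18 and 24 in Cd4 sgRNA libraries, or 0.0430 and 0.140, 1.04 and 1.47, and 0.549 and 0.542 CPM. It rose by 4.02 on the log2 scale (SE 0.57) in control sgRNA cells (adjusted p = 0.00449, edgeR's quasi-likelihood test) and by 2.85 (SE 0.74) in Cd4 sgRNA cells (adjusted p = 0.0370, same edgeR test). Rarg passed the filter on low counts only through its TETact libraries, so a difference from wildtype was built into its being tested. Its calls add no support beyond the counts themselves. The wildtype counts are few. Without wildtype replicate 1 the log2 fold changes were 3.15 and 1.97, and without wildtype replicate 2 they were 4.80 and 3.63. Neither call held without either wildtype library, and that in Cd4 sgRNA cells was also lost without either Cd4 sgRNA library (edgeR's quasi-likelihood test, adjusted p between 0.0521 and 0.363). Rara, at 52.8 to 88.4 CPM, and Rarb, at 0.140 to 0.366 CPM, did not pass. Cdx1, Cdx2, Cdx4, Gsx1, Gsx2, Pdx1, Evx1 and Evx2 had at most 6 counts in any library.

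**Figure D5:**
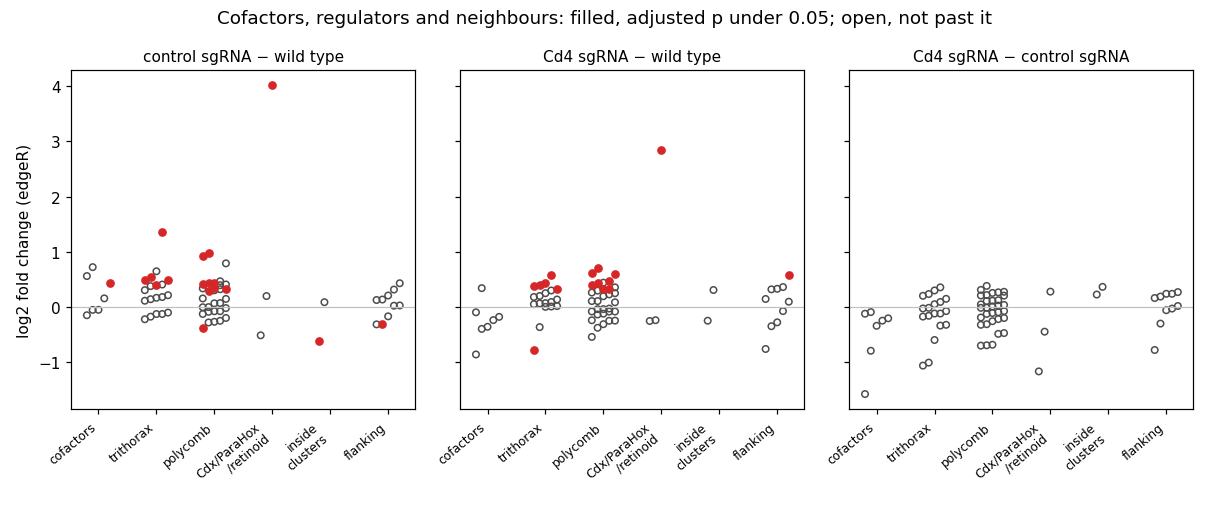
Log2 fold change of each tested cofactor, trithorax, polycomb, Cdx/ParaHox/retinoid, in-cluster and flanking gene, with 1 panel per comparison. Filled red points passed an adjusted p of 0.05 in edgeR's quasi-likelihood test. The highest filled point, at 4.02 and 2.85, is Rarg, which passed the filter on low counts only through its TETact libraries. No point is filled between the TETact groups.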

How the data were processed

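RNA-seq of 6 A20 libraries was analysed, in 3 groups of 2 taken from the sample labels. The authors prepared the libraries with a TruSeq RNA kit, aligned the reads with Rsubread to mm10 and deposited raw counts per gene from featureCounts with its inbuilt RefSeq annotation. Strand and multi-mapping settings are not given in the sources used here, and Hox paralogues resemble each other in the homeobox. Of 27179 identifiers, 25275 matched a RefSeq symbol (GRCm38.p6). Unannotated, mitochondrial and ribosomal RNA genes were removed, leaving 25227, and filterByExpr of edgeR 4.0.16 (R 4.3.3) left 12430 genes for testing. Counts were normalised by TMM, and 1 quasi-likelihood model of the 6 libraries, with a term per group, gave 3 comparisons by two-sided tests, adjusted by Benjamini-Hochberg over all genes tested. The code was tested on simulated data. CPM are TMM-scaled, and CPM per kb were divided by exonic length. A call is an adjusted p under 0.05. All 39 Hox genes are counted, and Hox genes and tested cofactors are named, with from each other list up to 3 genes per direction and comparison with the smallest p; a few genes that fall under this rule are counted but not reported here by name. The members and lists were chosen with earlier results of these data known. Alternatives were voomLmFit (limma 3.58.1), DESeq2 1.42.0, the older quasi-likelihood of edgeR (chosen after seeing the data), other scalings, filters and fits, thinning to a common depth, and leaving out each library.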

Additional observations from a re-analysis of the deposited data

How the results depend on the processing

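The labels name no pairing by replicate number, and the main fit used none. Deviations of same-numbered libraries correlated at -0.032, 0.020 and -0.14 between the groups. With 2 libraries a group these values cannot exclude a pairing. With the replicate block, Hox calls were 2, 1 and 0 in control sgRNA against wildtype, Cd4 sgRNA against wildtype and Cd4 sgRNA against control sgRNA, beside 2, 0 and 0 without it, and regulator and cofactor list calls in Cd4 sgRNA against wildtype went from 15 to 7. In control sgRNA against wildtype, Hox calls fell to 1 (Hoxa7) under the stricter filter, which removed Hoxc6, and to 1 (Hoxa7) when only the 2 groups were fitted, where list calls were 5 beside 16. In Cd4 sgRNA against wildtype they rose to 1 (Hoxc6) with the older quasi-likelihood, voomLmFit, no expression filter or no annotation filter, to 2 after thinning (23.7% of all genes), to 3 with DESeq2 (28.6%) and to 9 with only the 2 groups (61.8%), where list calls were 36. DESeq2 gave 7 list calls in Cd4 sgRNA against control sgRNA (11.5% of all genes), beside 0. The cause of these shifts was not tested.

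Leaving out 1 library at a time, Hox calls ranged from 0 to 8, 0 to 9 and 0 to 6 in the 3 comparisons in the same order, and list calls from 0 to 40, 0 to 38 and 0 to 42, while the share of all genes called ranged from 0.910% to 64.2%, 0.635% to 59.7% and 0.00777% to 61.2%. After thinning, estimates changed sign for Hoxb5 in control sgRNA against wildtype (-0.62), Hoxa6 in Cd4 sgRNA against wildtype (-0.16), and Hoxb5 (0.57) and Hoxb6 (0.11) in Cd4 sgRNA against control sgRNA. With a library left out, in control sgRNA against wildtype Hoxa3 ranged from -0.30 to 0.14, Hoxa4 from -0.32 to 0.53, Hoxb5 from -0.18 to 0.38 and Hoxc9 from -0.55 to 0.28. In Cd4 sgRNA against wildtype Hoxa5 ranged from -0.24 to 0.070 and Hoxb5 from -0.43 to 0.13. In Cd4 sgRNA against control sgRNA Hoxc6 ranged from -0.77 to 0.36 and Hoxc10 from -0.44 to 0.039. None of these was a call in the fit reported.

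Counting Hox genes with at least 1 count gave 19, 17, 24, 22, 21 and 24 per library (wildtype, control sgRNA, Cd4 sgRNA, replicates 1 and 2 of each), and at least 10 counts gave 16, 13, 18, 19, 14 and 16. At a common depth control sgRNA libraries gave 17.2 and 17.8 and Cd4 sgRNA replicate 2 gave 17.1. With library size only, the mean HoxB sum was 11.9 CPM in wildtype and 13.3 CPM in control sgRNA cells and the mean HoxC sum 24.4 CPM in wildtype. Depth limits the low genes: a floor of 3 counts is 0.140 CPM in the smallest library.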

Other observations

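Between the outermost Hox genes of the clusters lie 14 further genes that the count files hold, of which 9 had no read in any library. Other annotated genes there were not analysed here. The silent ones included Hotair, the HoxC antisense non-coding RNA, and the microRNA loci Mir196b, Mir196a-1, Mir196a-2, Mir10b and Mir615. Mir10a, which lies within the span of Hoxb3, had at most 3 counts, in a poly(A) preparation that does not recover mature microRNAs. Only Mira and Hoxaas3 were tested, and Hoxaas3, which overlaps Hoxa5 and Hoxa6, gave 0.187 to 0.305 CPM over the 6 libraries without a call.

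Within 200 kb on either side of the clusters, 10 of 19 flanking genes were tested. Next to HoxB, the ubiquitin-conjugating enzyme gene Ube2z gave 150 and 149 CPM in wildtype, 123 and 118 CPM in control sgRNA and 140.0 and 143 CPM in Cd4 sgRNA libraries. It fell by 0.31 on the log2 scale in control sgRNA cells (adjusted p = 0.0314, edgeR's quasi-likelihood test). Its neighbour Atp5g1, a subunit gene of the mitochondrial ATP synthase, gave 64.9 and 65.3 CPM in wildtype, 100.0 and 74.9 CPM in control sgRNA and 96.3 and 98.9 CPM in Cd4 sgRNA libraries, and rose by 0.58 in Cd4 sgRNA cells (adjusted p = 0.0373, edgeR's quasi-likelihood test). The flanking homeobox genes Evx1 and Evx2 had at most 2 counts in wildtype, and Skap2, beside HoxA, gave 28.6 to 42.7 CPM.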
